A study of Mus musculus with 18 samples.

Results

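This comparison set mouse embryonic stem (ES) cells that carry an Oct4-VP16 fusion against ES cells that carry Oct4 itself, both 120 h after leukaemia inhibitory factor (LIF) was withdrawn. The members were chosen by sample title alone: 2 arrays of the line called Oct4VP2 here and 2 arrays of the Oct4 line, 4 of the 18 arrays of the series. Each array took RNA of 1 culture in Cy3 and a common RNA pool of mouse cell lines in Cy5, and each value is a log2 ratio of sample over that pool. Both lines were made from ZHBTc4, a 129/Ola ES cell line whose Oct4 comes from a transgene that tetracycline shuts off, and for both lines without LIF the labels give tetracycline with selection in 2 μg/ml puromycin. Oct4VP2 cells received a randomly integrated mouse oct4-vp16 construct and were plated at 250000 cells per flask. Oct4 cells received a mouse oct4 construct and were plated at 200000 per flask, so the lines also differed in plating density, and its part in the results was not tested. Replicates are independent clones of a line, per the series description. The 48 h arrays without LIF and the 24 h arrays with LIF of both lines, and the 3 pairs of ZHBTc4 arrays at the same times, serve below only to place the 120 h difference. For ZHBTc4 the labels mention no tetracycline, and for the Oct4 cultures with LIF they describe a knock-in and give neither tetracycline nor puromycin, which they do give for Oct4VP2 with LIF. Another scan session than for the remaining arrays held those of ZHBTc4 and Oct4 with LIF, and of ZHBTc4 without LIF it held the second replicates.

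Oct4, encoded by Pou5f1, is a POU-domain transcription factor that binds the octamer DNA motif and is required in the early embryo and in ES cells for pluripotency. LIF signals through STAT3 and keeps mouse ES cells undifferentiated in culture, and ES cells that lose Oct4 are known to turn towards trophoblast. VP16 is a herpesvirus protein whose activation domain recruits the transcription machinery, so that fusing it to a DNA-binding factor makes a strong activator.

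The array files do not name genes for their 60-base probes. A probe was given a gene here only through the 300-base windows around annotated gene starts of the RefSeq annotation on GRCm38.p6. Its sequence had to match, whole or over at least 40 bases, in 1 place among the windows and on the strand of 1 gene. Matches outside the windows were not searched, so a probe may also fit other RNAs. The rule placed 220 of 42006 probes in 214 genes, and 160 of these genes were tested. The gene of the constructs, Pou5f1, and nearly all of the 325 pluripotency, lineage and other marker genes listed for this work had no probe placed in this way and were not analysed here. Only Plet1, from the trophoblast list, and Acta2, from the list of matrix and cytoskeleton genes, had one, so the ES cell identity of the cultures could not be checked against its defining markers. The following pieces, 30 bases each and written 5′ to 3′, show the RNA stretches that the probes of 6 genes described below read, each inside its match to GRCm38.p6.
Plet1 (chr9:50505002-50505031, plus strand): ctactagcagatttccactgtgcccagacc
Tmc4 (chr7:3665824-3665853, minus strand): gccctctgccacccgaatgctacactctca
Lamb2 (chr9:108490426-108490455, plus strand): ccctagggcctagccttgtcgccaagcact
Gm11423 (chr11:82780976-82781005, minus strand): tcctagagtttctcagattgttagatattg
Bcl11a (chr11:24172868-24172897, plus strand): ttgtgatgttttctgacagtagcctccaag
Defb36 (chr2:152612670-152612699, plus strand): gtcctaggttgaccccatggattcttgagt

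Across the array, Oct4VP2 and Oct4 cells differed widely at 120 h. Of 31727 probes tested, 3147 (9.92%) were higher in Oct4VP2 and 2797 (8.82%) lower, or 18.7% in all, at a Benjamini-Hochberg adjusted p under 0.05 in limma and at least a 2-fold difference. The RNA is of whole cultures, so fewer cells of a type and less RNA per cell cannot be told apart. The higher probes had a median log2 difference of 1.75 and the lower ones of -1.54. At least 16-fold differences were found in 165 higher and 50 lower probes. The 2 arrays of each line resembled each other more than they resembled the other line: Pearson's r over probes was 0.952 between the Oct4VP2 arrays and 0.960 between the Oct4 arrays, against 0.801 to 0.836 between an Oct4VP2 and an Oct4 array. The SD over probes of the difference between lines was 1.05, against 0.583 for the difference between the Oct4VP2 replicates and 0.514 for that between the Oct4 replicates.

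**Figure D1:**
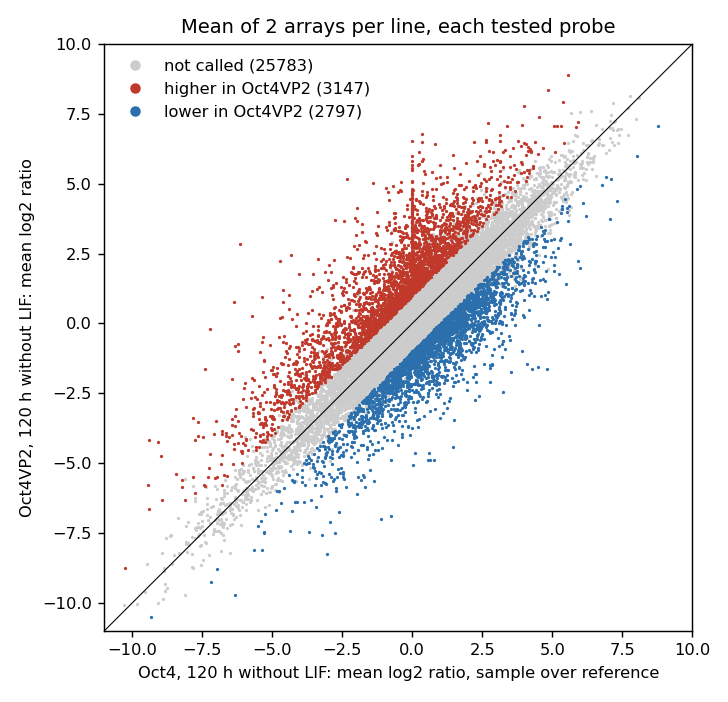
Mean log2 ratio of each tested probe in Oct4VP2 (vertical axis) and Oct4 (horizontal axis) at 120 h without LIF, over 2 arrays each, with equality as a line. The 3147 probes higher and the 2797 lower in Oct4VP2 lie in bands on both sides of the line, and the vertical streak near 0 holds 118 of the higher ones at a mean of -0.03 in Oct4, of which 112 were not well above background in either channel on both Oct4 arrays.

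The directions differed in how many calls rested on a dim line. Of the probes called higher in Oct4VP2, 827 (26.3%) were not well above background on either Oct4 array, whereas 223 (7.97%) of those called lower were not well above background on either Oct4VP2 array. Among probes well above background on all 4 arrays, 2143 were higher and 2373 lower in Oct4VP2. With the tests repeated on such probes alone, 2165 were higher and 2398 lower, so the balance between directions turned. The counts also depended on background correction: with normexp and loess in place of the scanner software's processed signals, 1633 probes were higher and 1592 lower, and 1430 of the higher and 1509 of the lower probes kept their call. A core of 1086 higher and 934 lower probes kept the call under every alternative in which they were tested, each array left out in turn included. All 4 arrays were scanned in 1 session, but the Oct4VP2 pair lay on a slide with the 48 h Oct4 arrays and the Oct4 pair on another with ZHBTc4 arrays, so slide and line cannot be told apart within the 4 arrays. With slide as a random block over the 18 arrays, 2896 probes were higher and 2492 lower.

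Where Oct4VP2 and Oct4 stood apart at 120 h, Oct4 lay further than Oct4VP2 from the levels of ZHBTc4 cells with LIF. Taking the mean of the 2 ZHBTc4 arrays with LIF as zero for each probe, the probes called higher in Oct4VP2 had medians of 0.20 and 0.40 on the Oct4VP2 arrays at 120 h, against -1.44 and -1.41 on the Oct4 arrays. The probes called lower had medians of 0.21 and -0.15 on the Oct4VP2 arrays and of 1.68 and 1.66 on the Oct4 arrays. Both sets were chosen on these 4 arrays, and the choice fixes the gap between the lines, not which of them lies nearer to zero. ZHBTc4 at 120 h, whose arrays the choice did not use, lay on the side of Oct4, with medians of -1.0 on both arrays for the first set and 1.24 and 1.13 for the second. The zero comes from the other scan session than the 4 arrays, and the part of session in these distances was not tested, while ZHBTc4 replicate 2, scanned in the session of the zero, is the array at -1.0 and 1.13. With LIF, the medians were 0.23 and 0.24 on the Oct4VP2 arrays, against -0.13 and -0.19 on the Oct4 arrays, for the first set, and -0.14 and -0.09 in Oct4VP2, against 0.05 and 0.28 in Oct4, for the second. These gaps with LIF cross both sessions.

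**Figure D2:**
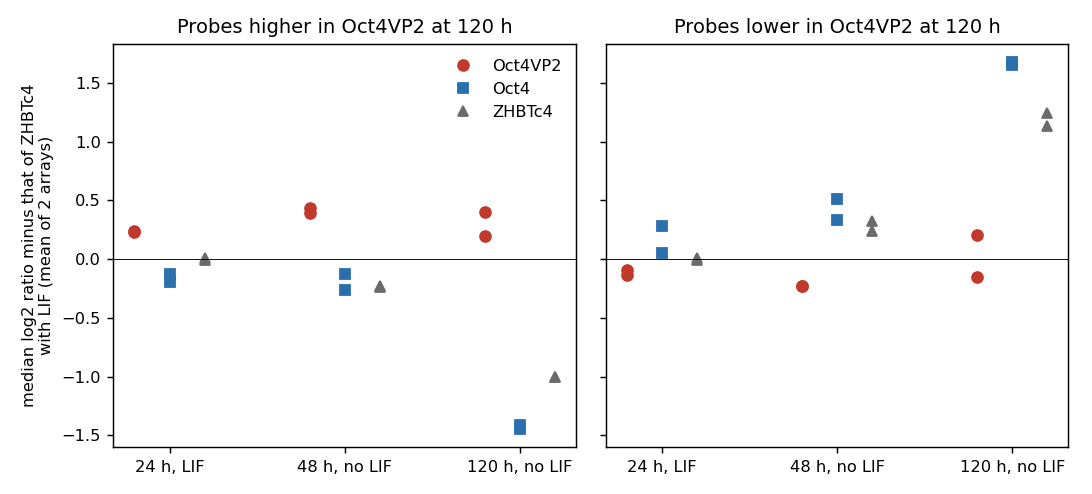
Median over the probes called at 120 h of the log2 ratio on each array minus that of ZHBTc4 with LIF, by time, with 1 point per array. At 120 h the Oct4VP2 arrays lie between -0.15 and 0.40, while the Oct4 and ZHBTc4 arrays lie at -1.0 or below for the 3147 higher probes and at 1.13 or above for the 2797 lower ones.

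Probe by probe, the levels of the lines with LIF were set against both 120 h levels. Of the probes called higher in Oct4VP2, 80.7% had a level in Oct4VP2 with LIF nearer to Oct4VP2 at 120 h than to Oct4 at 120 h, as did 88.7% of those called lower, against 65.7% of all tested probes. The levels in Oct4 cells with LIF also lay nearer to Oct4VP2 at 120 h for 82.8% of the lower probes and 67.5% of the higher ones, against 65.3% of all probes, and those in ZHBTc4 with LIF for 85.7% and 71.2%, against 66.3%. For the higher probes these shares were near that of the whole array in Oct4 and ZHBTc4. At 120 h ZHBTc4 went the other way: it was nearer to Oct4 for 73.0% of the higher and 66.2% of the lower probes, against 56.9% of all. Replicate 1 of ZHBTc4 at 120 h shared a slide with the Oct4 arrays and replicate 2 did not, and with replicate 2 alone the shares were 71.8% and 62.3%, against 55.6% of all.

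Read in the other direction, probes chosen on ZHBTc4 arrays alone were also split between the lines. Between ZHBTc4 with LIF and ZHBTc4 after 120 h, 4118 probes (13%) rose and 3293 (10.4%) fell. Of the probes that rose in ZHBTc4, 35.7% were lower in Oct4VP2 than in Oct4 at 120 h and 3.93% higher, with a median log2 difference of -0.79. Of those that fell in ZHBTc4, 44.7% were higher in Oct4VP2 and 1.67% lower, with a median of 0.98. Of all tested probes, 8.82% were lower in Oct4VP2 and 9.92% higher, with a median of -0.03. Each Oct4VP2 array showed this alone: against the mean of the Oct4 arrays the ZHBTc4-rising probes lay at -0.73 on replicate 1 and -0.84 on replicate 2, and the ZHBTc4-falling ones at 0.96 and 0.95. With normexp and loess the medians of the ZHBTc4-rising and ZHBTc4-falling probes were -0.44 and 0.51. With sets chosen on ZHBTc4 replicate 2, which shared no slide with the 4 arrays, the medians were -0.75 and 0.89. For those sets they were -0.37 and 0.40 with normexp and loess.

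The Oct4VP2 replicates did not hold equally low levels. Over the probes called lower, the median difference from the Oct4 mean was -1.37 on Oct4VP2 replicate 1 and -1.70 on replicate 2. Replicate 1 lay more than 2-fold above replicate 2 in 512 of these 2797 probes and more than 2-fold below it in 37, whereas the Oct4 replicates stood that far apart in 84 and 45. With normexp and loess the numbers were 194 and 2 for Oct4VP2. Part of this tilt was array-wide: over all tested probes replicate 1 lay that far above replicate 2 in 1720 and below it in 850, or 407 and 144 with normexp and loess. Among the probes called higher the numbers were 135 and 182 for Oct4VP2. Without Oct4VP2 replicate 1, 3000 probes were higher and 2912 lower, and without replicate 2, 2555 were higher and 1964 lower.

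More probes differed between the lines at 120 h than at 48 h. The SD over probes of the difference was 1.05 at 120 h and 0.827 at 48 h. At 48 h, Oct4VP2 exceeded Oct4 in 1624 probes (5.12%) and lay below it in 1608 (5.07%). The arrays at 48 h and 120 h are different arrays of the same lines. Of the 3147 probes higher at 120 h, 951 (30.2%) were already called higher at 48 h and 81 (2.57%) called lower, and 951 is 58.6% of the higher calls at 48 h. Of the 2797 lower ones, 735 (26.3%) were called lower at 48 h and 28 (1.00%) higher, and 735 is 45.7% of the lower calls at 48 h. A set chosen at 1 time is widest at that time by the choice: the probes called at 120 h had medians of 0.66 and -0.61 at 48 h and of 1.75 and -1.54 at 120 h, while those called at 48 h had 1.63 and -1.62 at 48 h and 1.39 and -0.98 at 120 h. Tested directly, the difference at 120 h minus that at 48 h was positive and past the threshold in 1549 probes (4.88%) and negative in 1210 (3.81%), or 8.7% in all. The size of the difference was greater at 120 h in 1145 and 899 of these and smaller in 404 and 311. The 48 h arrays lay on other slides than the 120 h arrays of the same line, and with slide as a random block these counts were 947 and 677. The counts of 1549 and 1210 also fell when any single array of the 2 lines at 48 h or 120 h was left out. They fell most without replicate 2 of Oct4 at 48 h.

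The probes with the largest differences at 120 h on the processed signals were dim in 1 line. By a fixed rule 2 probes in each direction are given by identifier, since their place in the genome was not settled here. Probe Z00035453-1 had log2 ratios of 2.55 and 3.12 in Oct4VP2 and -6.15 and -6.15 in Oct4, where it was not well above background on either array. In the Cy3 channel alone it was at least 18.4-fold higher in Oct4VP2, the mean signal after normexp, loess and Aquantile scaling against the lowest signal well above background (limma adjusted p = 7.64e-07 on the processed ratios). This bound leaves out the Cy5 channel, and the ratio with normexp and loess differed by less, 3.77 on the log2 scale. Probe Z00033322-1 had 4.81 and 5.52 in Oct4VP2 and -2.33 and -2.34 in Oct4, again not well above background there, and was at least 12.7-fold higher in Cy3 alone (limma adjusted p = 1.99e-06), with a ratio that differed by 3.53 on the log2 scale with normexp and loess. The first probe stood at 3.90 ± 0.40 in Oct4VP2 with LIF, against -1.76 ± 0.33 in Oct4, and the second at 3.60 ± 0.18 in Oct4VP2, against 0.28 ± 1.1 in Oct4 (SD, n = 2 each). These levels with LIF come from different scan sessions for Oct4VP2 and Oct4, and the part of session was not tested.

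In the other direction, probe Z00063266-1 had log2 ratios of 0.24 and -3.53 in Oct4VP2 and 4.99 and 4.64 in Oct4 (log2 difference -6.46, limma adjusted p = 2.99e-04). Probe Z00060954-1 had -4.86 and -8.91 in Oct4VP2, against -0.54 and -1.01 in Oct4 (log2 difference -6.11, limma adjusted p = 0.00199). Each was well above background on 1 of the 2 Oct4VP2 arrays, so these means include an array at background and are no exact sizes. Without Oct4VP2 replicate 2 the differences were -4.57 and -4.09, and without replicate 1 they were -8.35 and -8.14. With only the 4 arrays fitted, Z00060954-1 lost its call (limma adjusted p = 0.0541). With LIF both were well above background in Oct4, at 0.59 ± 1.0 and -4.54 ± 2.0 (SD, n = 2 each), and on neither Oct4VP2 array. Here too the arrays with LIF of Oct4VP2 and Oct4 were of different scan sessions.

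Among the 160 placed genes, 7 (4.4%) were higher and 15 (9.4%) lower in Oct4VP2 at 120 h, against 9.92% and 8.82% of all probes, and their median log2 difference was -0.12. The 7 higher and 13 of the lower genes passed the background limit on both arrays of the line with the higher level and are described here. With normexp and loess 6 of them kept the call: Plet1, Tmc4, Lamb2, Slc12a4, Abhd6 and the long non-coding RNA Gm9828, all lower in Oct4VP2. None of the 20 gave a call in the opposite direction under any alternative, and Psme2, at a log2 difference of 0.05 with Cy3 alone, was the only one of them to turn its sign.

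Plet1, a glycosylphosphatidylinositol-anchored surface protein known from trophoblast, extraembryonic ectoderm and epithelial progenitors, had the largest log2 difference of the placed genes. Its log2 ratio at 120 h was 1.85 and 0.39 in Oct4VP2, against 4.90 and 4.82 in Oct4. Groups without overlap were a condition for naming the gene, and the Oct4VP2 replicates lay further apart than the Oct4 ones. The log2 difference was -3.74 (SE 0.434, limma adjusted p = 9.93e-05), 13.4-fold lower, and -3.14 with normexp and loess. It was -4.47 without Oct4VP2 replicate 1 and -3.01 without replicate 2. Plet1 was not specific to cells without LIF: ZHBTc4 with LIF stood at 5.57 ± 0.17 and at 5.70 ± 0.29 after 120 h (SD, n = 2 each). Oct4VP2 stood at 2.69 ± 0.71 with LIF and 1.22 ± 0.28 at 48 h, and Oct4 at 4.13 ± 0.38 and 2.78 ± 0.15. The arrays with LIF of Oct4 and ZHBTc4 were of another scan session than those of Oct4VP2, and the part of session was not tested. The difference of -1.56 at 48 h had widened by -2.18 at 120 h (SE 0.614, limma adjusted p = 0.041). Its probe ends 578 bases before the annotated end of the gene.

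The start window of Plet1 holds the octamer that Oct4 is known to bind, shown in capitals within 30 bases because it was the only one of the 22 called genes with this motif in its window. The first base of the octamer lies 73 bases before the annotated start.
Plet1 start window (chr9:50494441-50494470, plus strand, GRCm38.p6): gagggagggtgATTTGCATgcatgacctca
The search was for ATTTGCAT on both strands of windows running from 250 bases before to 50 bases after a start. It was found in 1.74% of all 32851 windows, in 1.97% of all 27025 genes with a window and in 2 of the 160 placed genes tested. A match of letters does not show binding.

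Tmc4, a member of the transmembrane channel-like family, and Lamb2, the beta 2 chain of laminin in basement membranes, were also lower in Oct4VP2. Tmc4 had log2 ratios of -0.82 and -1.30 in Oct4VP2 and 0.94 and 1.19 in Oct4 (log2 difference -2.12, SE 0.173, limma adjusted p = 1.19e-05). Lamb2 had -2.07 and -2.39 in Oct4VP2 and -0.33 and -0.31 in Oct4 (log2 difference -1.91, SE 0.190, limma adjusted p = 3.82e-05). In both genes replicates differed little against the gap between lines. At 120 h Oct4 and ZHBTc4 lay above their levels with LIF, while Oct4VP2 stood near its own in Tmc4 and below it in Lamb2. The Oct4 and ZHBTc4 levels with LIF come from another scan session than Oct4 and Oct4VP2 at 120 h. The labels also describe those Oct4 cultures as a knock-in, and the part of both in these moves was not tested. At 120 h Tmc4 stood at -1.06 ± 0.34 in Oct4VP2, 1.06 ± 0.18 in Oct4 and 1.73 ± 0.01 in ZHBTc4, compared with -1.10 ± 0.15, -0.71 ± 0.09 and -0.90 ± 0.19 with LIF (SD, n = 2 each). Lamb2 stood at -2.23 ± 0.22, -0.32 ± 0.01 and -1.10 ± 0.04 at 120 h, in the same order of lines, and at -1.67 ± 0.12, -2.39 ± 0.05 and -2.44 ± 0.10 with LIF. The difference grew after 48 h in Tmc4 by -1.26 (SE 0.244, limma adjusted p = 0.00836) and in Lamb2 by -1.52 (SE 0.269, limma adjusted p = 0.00549). Both probes read the last stretch of the gene, 40 bases before its end in Tmc4 and 46 in Lamb2.

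Other genes lower in Oct4VP2 had narrower gaps. Slc12a4, a potassium-chloride cotransporter, had -0.87 and -0.78 in Oct4VP2 and 0.11 and 0.29 in Oct4 (log2 difference -1.02), close to the 2-fold limit, and missed it at -0.98 without Oct4VP2 replicate 1 and -0.93 without Oct4 replicate 2. Abhd6, a lipase that breaks down the endocannabinoid 2-arachidonoylglycerol, had 0.38 and -0.13 in Oct4VP2 and 1.20 and 1.28 in Oct4 (log2 difference -1.12), or -0.86 without Oct4VP2 replicate 2.

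Of 29 placed long non-coding RNA genes tested, 4 were called lower in Oct4VP2 and none higher. For comparison, 11 of 131 placed protein-coding genes were lower and 7 higher, and 8.82% and 9.92% of all probes. With so few genes the counts do not set long non-coding RNAs apart. Of the 4, 3 are described here, with no function given. Gm11423 had -0.91 and -0.67 in Oct4VP2, against 2.37 and 1.87 in Oct4 (log2 difference -2.91, SE 0.422, limma adjusted p = 4.04e-04). Gm9828 had -1.45 and -1.43 in Oct4VP2 and -0.35 and -0.16 in Oct4 (log2 difference -1.19). Appbp2os, named for its place opposite Appbp2, had -0.29 and -0.53 in Oct4VP2, against 1.32 and 0.95 in Oct4 (log2 difference -1.54). With normexp and loess the differences were -0.62 for Gm11423 and -0.88 for Appbp2os, under the 2-fold limit.

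The other 5 lower genes lost their call with normexp and loess, where their differences lay between -0.54 and -0.07. They were Ltbp4, which binds latent TGF-beta in the extracellular matrix, Psme2, a subunit of the PA28 proteasome activator, Zmynd10, needed to assemble ciliary dynein, Mpig6b, an inhibitory receptor of megakaryocytes and platelets, and Rnf141, a RING finger protein. Their log2 differences with the processed signals ran from -1.48 in Ltbp4 to -1.21 in Rnf141. Psme2 had 1.04 and 1.19 in Oct4VP2, against 2.09 and 2.92 in Oct4. Ltbp4 had -0.29 and 0.82 in Oct4VP2, against 2.17 and 1.31 in Oct4. The calls of Ltbp4, Psme2, Zmynd10 and Mpig6b also depended on single arrays: the difference was -0.92 in Ltbp4 without Oct4VP2 replicate 1, -0.98 in Psme2 without Oct4 replicate 2, and -0.98 in Zmynd10 and -0.94 in Mpig6b without Oct4 replicate 1. These were not the only arrays that mattered. Zmynd10 lost its call without any single array of the 2 lines at 120 h, and Psme2 also without either Oct4VP2 array. Mpig6b lost it also without Oct4VP2 replicate 2, and Ltbp4 without Oct4 replicate 1.

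Of the genes higher in Oct4VP2, Bcl11a, a zinc finger repressor known for silencing fetal globin genes, was well above background on all 4 arrays. Its log2 ratio was 1.40 and 0.68 in Oct4VP2 and -0.43 and -0.35 in Oct4 (log2 difference 1.43, SE 0.299, limma adjusted p = 0.00362), or 0.96 with normexp and loess. All 3 lines were high at 48 h, at 1.94 ± 0.29 for Oct4VP2, 2.08 ± 0.06 for Oct4 and 2.31 ± 0.05 for ZHBTc4 (SD, n = 2 each). By 120 h ZHBTc4 stood at -1.04 ± 0.43, near Oct4, so that the level of Oct4VP2 was the highest of the 3. With LIF the order was the reverse, at -0.96 ± 0.60 in Oct4VP2, against 0.68 ± 0.10 in Oct4. Those arrays with LIF were of different scan sessions and differed in labelled culture conditions, whose part was not tested. The difference at 120 h exceeded that at 48 h by 1.57 (SE 0.423, limma adjusted p = 0.0347).

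**Figure D3:**
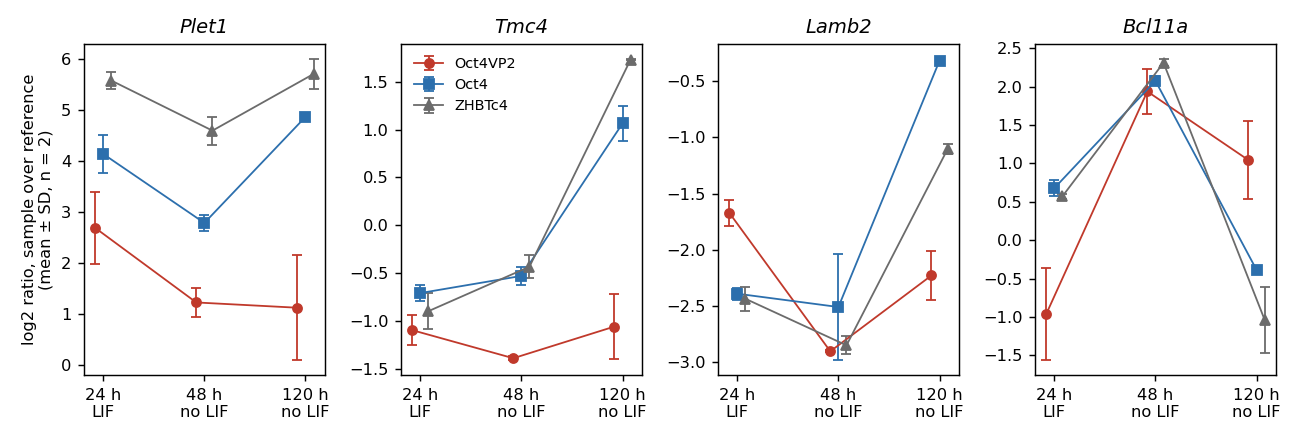
Mean log2 ratio (vertical axis; error bars, SD, n = 2) of Plet1, Tmc4, Lamb2 and Bcl11a with LIF at 24 h and without it at 48 h and 120 h in Oct4VP2, Oct4 and ZHBTc4. At 120 h Oct4VP2 is the lowest line for Plet1 (1.12), Tmc4 (-1.06) and Lamb2 (-2.23) and the highest for Bcl11a (1.04).

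Defb36, a beta-defensin, had log2 ratios of 1.66 and 2.17 in Oct4VP2, against -1.07 and -1.36 in Oct4, where it was not well above background on either array. It was at least 1.30-fold higher in Oct4VP2 in Cy3 alone (limma adjusted p = 5.51e-04 on the processed signals). With normexp and loess its ratio differed by 0.46 on the log2 scale, under the 2-fold limit. At 48 h Defb36 stood at 2.29 ± 0.26 in Oct4VP2, 2.17 ± 0.32 in Oct4 and 1.73 ± 0.01 in ZHBTc4, and at 120 h ZHBTc4, at -0.63 ± 0.38, was not well above background either (SD, n = 2 each). Rbbp5, a core subunit of the complexes that methylate histone H3 at lysine 4, and Cntn5, a neural cell adhesion molecule, were likewise dim on both Oct4 arrays, and in Cy3 alone were at least 1.32-fold and 1.34-fold higher in Oct4VP2. The ratios with normexp and loess differed by 0.34 in Rbbp5, less than its bound, and 0.48 in Cntn5 on the log2 scale, and Rbbp5 then missed the threshold (limma adjusted p = 0.137). The call of Cntn5 was lost when any single Oct4VP2 or Oct4 array at 120 h was left out. Rbbp5 lost its call without Oct4VP2 replicate 2 and without either Oct4 array. With slide as a random block both calls were lost. The Rbbp5 probe begins before the nearest annotated start. That of Cntn5 begins 95 bases past a start and ends 1270349 bases before the end of the gene.

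Gm14393, Ppp2r3c and H2bc11 were the remaining higher genes. Gm14393 had 3.13 and 2.72 in Oct4VP2 and 1.19 and 1.08 in Oct4 (log2 difference 1.79), or 0.98 with normexp and loess. Ppp2r3c, a regulatory subunit of protein phosphatase 2A, had 1.77 and 1.36 in Oct4VP2 and -0.26 and 0.87 in Oct4 (log2 difference 1.26). Its Oct4 replicates lay wide apart. The difference was 0.14 with normexp and loess and 0.69 without Oct4 replicate 1. The call was also lost when either Oct4VP2 array was left out, with only the 4 arrays fitted and with slide as a random block. H2bc11 is a histone H2B gene, reported as uncertain because histone genes have near-identical copies. It had -1.43 and -1.52 in Oct4VP2 and -2.77 and -2.45 in Oct4 (log2 difference 1.13). The difference was 0.47 with normexp and loess, 0.90 with Cy3 alone and 0.97 without Oct4 replicate 1. Acta2, smooth muscle actin, was not called. It had -0.27 and -0.54 in Oct4VP2 and -0.57 and -0.92 in Oct4 (log2 difference 0.34, limma adjusted p = 0.467), or -0.03 with normexp and loess.

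**Figure D4:**
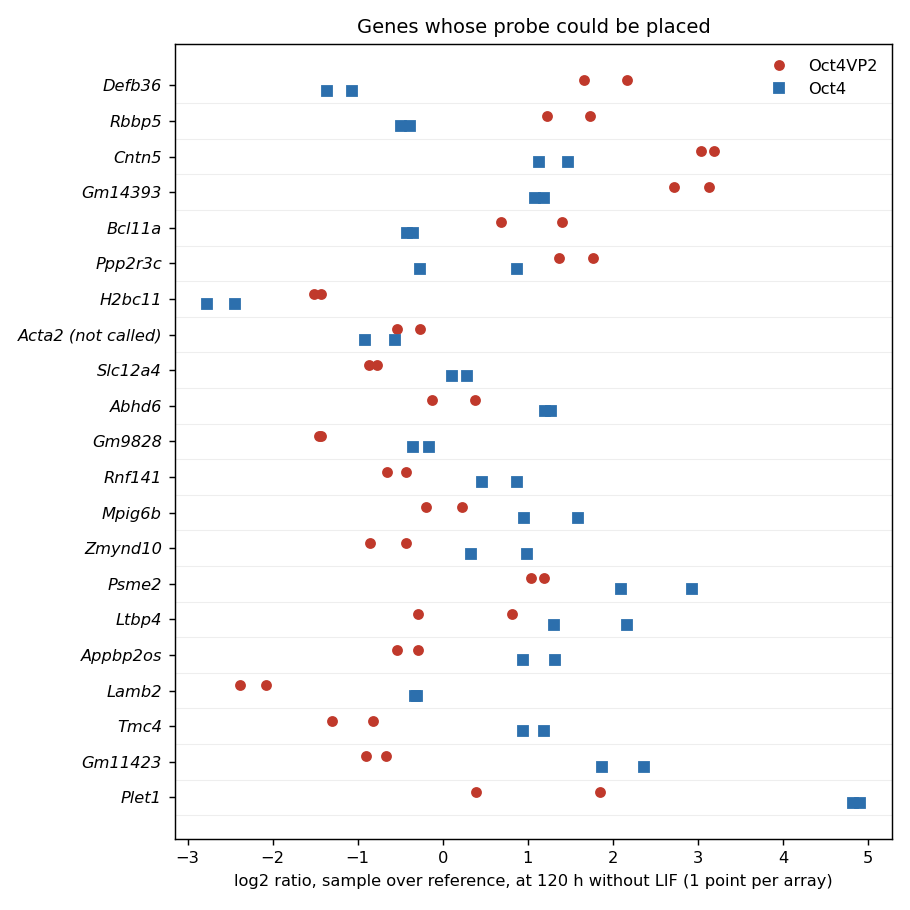
Log2 ratio at 120 h without LIF (horizontal axis) of the 20 placed genes described and of Acta2, 1 point per array, ordered by the difference between Oct4VP2 and Oct4. Arrays of the lines that do not overlap were a condition for naming the 20 called genes, and the Oct4VP2 points of Plet1 (1.85 and 0.39) lie furthest from those of Oct4 (4.90 and 4.82).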

How the data were processed

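The study measured RNA on 2-colour arrays. Per the file headers, the deposited intensities were made with Agilent Feature Extraction 9.5.1.1, whose processed signals are background-subtracted and dye-normalised. Per the labels, samples were labelled with Cy3 and the reference with Cy5. The authors also deposited a log10 value table of 25030 probes, used as an alternative. Within 0.001, once centred by probe, it equals the log10 of processed Cy3 over processed Cy5. Its scale and direction are therefore settled, while the constant added to each probe is unknown. Its column medians lie between 2.33 and 2.36.

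Here log2 of Cy3 over Cy5 processed signals was taken without further scaling, outlier spots were left out and spots of a probe averaged. A probe was tested when its Cy3 signal was flagged well above background by the scanner software on both arrays in 1 or more of 9 groups (31728 of 42006 probes, 1 of which had no value for the comparison). All 18 arrays entered 1 linear model with group means (limma 3.58.1, R 4.3.3, lmFit and eBayes, 9 residual and 2.15 prior degrees of freedom). A call required an adjusted p under 0.05 (Benjamini-Hochberg, over all probes) and at least 2-fold. Precision is limited by the number of arrays, 2 a line. The log2 ratios of 1 probe and of another are not compared as levels. Between 67.6% and 74.1% of probes on the 4 arrays were well above background in Cy3, and no spot was saturated there.

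The named genes are those placed, called, without overlap between arrays and well above background on both arrays of the higher line, up to 15 in each direction, and members of the marker lists. The probe with the highest mean Cy3 signal spoke for a gene. Of the 12 marker lists only 2 had a gene placed. Matches that hang over a window edge by up to 20 bases were allowed after the files were seen and before any value was. A probe named in this way reads only its own stretch of RNA. The probes of Rbbp5, Ppp2r3c, Rnf141, Psme2, Gm14393 and Acta2 begin before the nearest annotated start. Those of Defb36, Cntn5, Gm14393 and Ppp2r3c also lie within a gene annotated on the other strand. For these probes the reading as the level of the named gene is less certain. The members and lists were chosen with earlier results of these data known. The fit was tested on simulated data. Alternatives covered the signal, centring, filters, arrays fitted, blocks, the fold limit and leaving out each array.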

Additional observations from a re-analysis of the deposited data

Results flagged for a closer look

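The difference between Oct4VP2 and Oct4 was tested for a change between 48 h and 120 h without LIF. It was more positive at 120 h in 1549 probes and more negative in 1210. Of the genes named above, it moved in the positive direction in Defb36 by 3.01, Bcl11a by 1.57 and H2bc11 by 1.06 on the log2 scale. Defb36 was not well above background on either Oct4 array at 120 h, so its value is no exact size. The difference moved in the negative direction in Gm11423 (-3.0), Plet1 (-2.18), Lamb2 (-1.52), Tmc4 (-1.26), Abhd6 (-1.21), Gm9828 (-1.20), Appbp2os (-1.19) and Slc12a4 (-1.13). Each of these 11 passed a limma adjusted p of 0.05. The 4 probes given by identifier did not (limma adjusted p between 0.532 and 0.599). The named genes were chosen by their call at 120 h, and the change uses the same 120 h arrays. A move in the direction of the call was thus favoured by the choice, also for the gene changes given above. Of all tested probes, 8.7% passed this test with at least a 2-fold change. The part of slide in these changes was not tested gene by gene. In the genes that moved most in each direction, the 120 h difference itself was smaller with normexp and loess, 0.46 in Defb36 and -0.62 in Gm11423.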

How the results depend on the processing

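The 120 h counts of 3147 higher, 2797 lower and 5944 in all became 1633, 1592 and 3225 with normexp and loess, and 5728, 5623 and 11351 with no fold limit. With the deposited value table, which holds fewer probes, the lower count was 1833. All other alternatives kept each count within 1.5 times. Leaving out 1 array gave 2555 to 3000 higher, 1964 to 2912 lower and 4519 to 5912 in all. Cy3 alone gave 4190 higher and 3006 lower. The counts of changes after 48 h, of 1549 and 1210 (2759 in all) were 948 positive with normexp and loess, 2425 positive with Cy3 alone, and 947 and 677 (1624 in all) with slide as a random block. Leaving out 1 array gave 942 to 1420 positive, 705 to 1115 negative and 1647 to 2535 in all, with the lowest without replicate 2 of Oct4 at 48 h, and 794 negative without replicate 2 of Oct4VP2 at 48 h. The causes were not tested. With the replicate number as a block, 3145 were higher and 2796 lower at 120 h, and 1575 and 1220 changed after 48 h. The labels do not say that the numbers pair cultures, and the deviations of same-numbered arrays correlated with r = -0.03 over probes. The set medians for ZHBTc4-rising probes (-0.79) and ZHBTc4-falling probes (0.98), with alternatives chosen after seeing the data, were -0.44 and 0.51 with normexp and loess, 0.95 to 0.96 for the falling set on single Oct4VP2 arrays, and 0.89 for it with ZHBTc4 replicate 2 alone. For the 4 probes and 21 genes named, normexp and loess lost 14 calls and turned the sign of Acta2 (-0.029), which was not called, and Cy3 alone lost 5 and turned Psme2 (0.048). Slide as a random block lost 4 of these calls and leaving out 1 array lost 5 to 7.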
